A study of Sus scrofa with 6 samples.

Results

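The aminoacyl-tRNA synthetase genes encode the enzymes that attach each amino acid to its transfer RNA. They were taken by symbol from the authors' FPKM table, which uses the older symbols; FPKM counts sequenced fragments relative to gene length and sequencing depth. Of 36 listed genes, 35 had a row among the 29884 genes of the table, 20 of 20 cytosolic and 15 of 16 mitochondrial (suffix 2), and HARS2 was not analysed here. The values come from RNA sequencing of 6 libraries from pig (Sus scrofa) testis cultures labelled as primitive spermatogonia, germ cells from which sperm production begins. The 3 RA libraries received all-trans-retinoic acid (RA) at 2 umol/L, a derivative of vitamin A that starts spermatogonial differentiation in mammals, and the 3 control libraries had 0.1% ethanol in its place. The labels give no strain, age or culture time for either group and do not state whether the libraries within each group had their own culture or animal. The p-values below therefore reflect the spread of these libraries alone, and that spread may be technical. Values of single libraries follow the order of replicates 1, 2 and 3.

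Each synthetase uses ATP to activate its amino acid and then loads it onto the matching tRNA, which carries it to the ribosome. The cytosolic enzymes serve translation of nuclear-encoded proteins, while a separate set, also encoded in the nucleus, serves the ribosomes of mitochondria. In mammals GARS and KARS each make both forms from a single gene, EPRS joins the glutamate and proline enzymes in a single chain, and phenylalanine is charged in the cytosol by an enzyme of FARSA and FARSB chains. Several cytosolic enzymes (EPRS, IARS, LARS, MARS, QARS, RARS, KARS and DARS) are held in a multi-synthetase complex. Synthetases fall into class I and class II by the fold of the catalytic domain.

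Library totals, worked back from the deposited counts and FPKM, lay between 62084199 and 87520891 reads. Marker genes of other testis cells were present beside germ cell genes, and no marker found was at 0 in all libraries. The summed level of 4 germ cell markers (DDX4, DAZL, UCHL1, KIT) was 168 to 175 FPKM in control and 143 to 151 FPKM in RA, and DDX4 of the 4 fell (limma). The summed level of 5 Sertoli cell markers was 9225 to 9705 and 9531 to 10214 FPKM, most of it from the secreted protein gene CLU (mean 9242 FPKM in control), and 3 of the 5 fell. All 5 peritubular myoid markers rose, with sums of 445 to 509 FPKM in control and 1319 to 1571 FPKM in RA. Leydig markers summed to 182 to 198 FPKM in control and 215 to 232 FPKM in RA (1 rose and 1 fell of 4 tested), endothelial markers to 21.5 to 24.8 and 22.5 to 26.2 FPKM, and macrophage markers to 35.7 to 40.2 and 37.4 to 54.2 FPKM (1 of 5 rose). No endothelial marker of 4 tested was called by limma, 1 was lower at an unadjusted p under 0.05, and edgeR and DESeq2 each called 1 lower. The part of these shifts in the synthetase values was not tested, and in such bulk libraries fewer cells of a type and less RNA per cell cannot be told apart.

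Most cytosolic synthetase transcripts were more abundant than the mitochondrial ones, with an overlap between the lowest of the former and the highest of the latter. The 20 cytosolic genes ranged in control from a mean of 7.88 ± 0.549 FPKM for TARS (threonine) to 224 ± 9.74 FPKM for KARS (lysine; mean ± SD with n = 3 libraries in each group here and throughout). The 15 mitochondrial genes ranged from 0.399 ± 0.012 FPKM for MARS2 (methionine) to 10.9 ± 0.921 FPKM for CARS2 (cysteine). FPKM divides by the deposited gene length, which was 6237 bases for TARS, 15313 for MARS2 and 1883 for CARS2. KARS stood apart at the top, with QARS (glutamine, 84.9 ± 3.16 FPKM), AARS (alanine, 82.4 ± 4.78) and GARS (glycine, 71.9 ± 0.591) next. QARS and AARS overlapped in control, where QARS lay between 81.5 and 87.7 FPKM and AARS between 78.8 and 87.8. Behind these values stood 1633 to 49836 recovered reads per library for a cytosolic gene and 222 to 7912 for a mitochondrial one, the fewest for YARS2 in RA replicate 2.

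**Figure D1:**
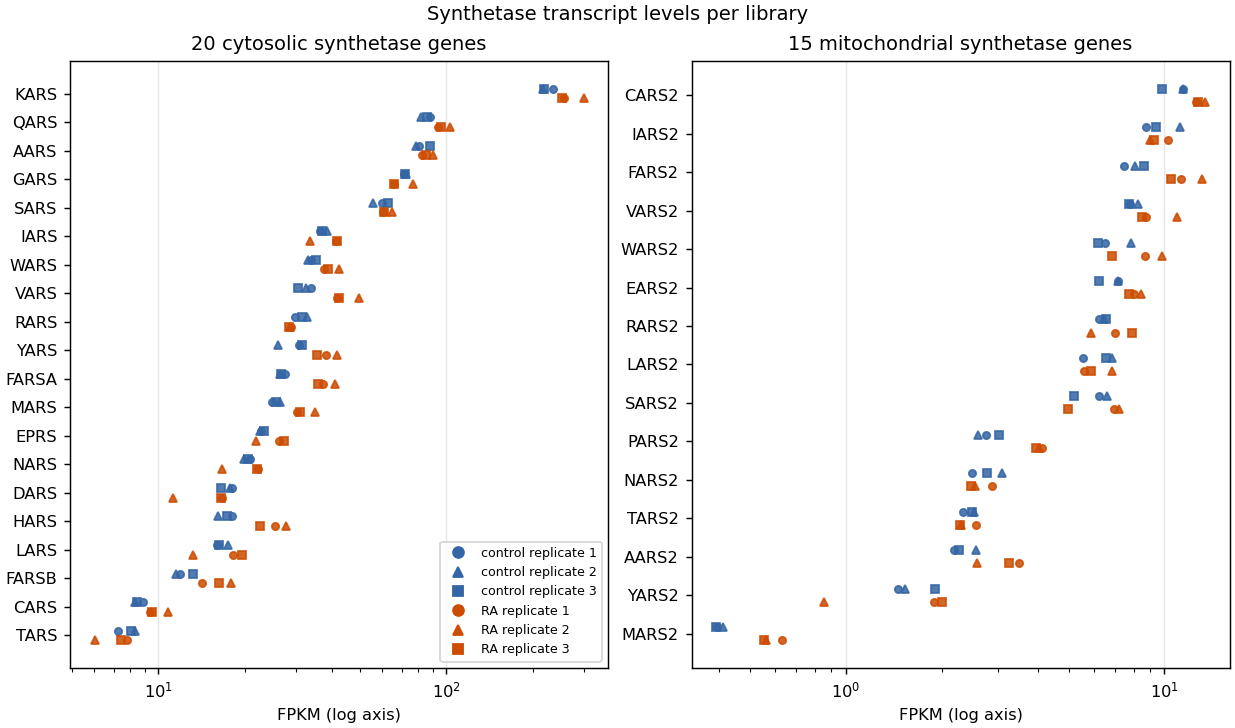
FPKM of each synthetase gene in each library on a log axis, cytosolic genes on the left and mitochondrial genes on the right, ordered by mean control level; blue marks control and orange RA, with a marker shape per replicate. KARS lies highest at 217 to 300 FPKM and MARS2 lowest at 0.391 to 0.630 FPKM.

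The summed level of the 20 cytosolic genes was 875, 843 and 869 FPKM in control and 954, 1033 and 955 FPKM in RA. Every RA library lay above every control library, also without KARS, where the sums were 626 to 650 FPKM in control and 698 to 733 FPKM in RA. The 15 mitochondrial genes summed to 78.7, 86.6 and 79.1 FPKM in control and 94.6, 97.6 and 88.9 FPKM in RA, again with no overlap.

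The study set RA-treated testis cultures labelled as primitive spermatogonia against ethanol controls. In RA, 6 of 20 cytosolic genes rose (HARS, FARSA, VARS, YARS, FARSB and MARS) and 2 of 14 tested mitochondrial genes rose (FARS2 and PARS2), while 0 fell. The test was limma on log2(FPKM + 1) over the 14567 genes whose mean FPKM reached 0.5. It was two-sided, with a Benjamini-Hochberg adjusted p under 0.05 as the threshold. Log2 changes are on this scale unless another fit is named, and low genes show less than their full change on it. Of all genes tested, 25.9% were called by the same test, 13.9% higher and 12.0% lower, against 30% and 0% of the cytosolic and 14.3% and 0% of the mitochondrial genes. The mitochondrial share called higher was thus near the background. At an unadjusted p under 0.05 limma also put 0 of the 34 tested members lower, and edgeR and DESeq2 called 0 lower. The median log2 change was 0.16 for the cytosolic genes and 0.15 for the mitochondrial genes, against -0.01 for all genes tested. All these changes were small: the largest ratio of mean FPKM among the called genes was 1.47, for HARS.

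In 16 of 34 tested members all RA libraries lay above all control libraries, and in 1 (RARS) all lay below, where 23.9% and 24.0% of all genes tested did so, 48.0% in either direction. The log2 change was above 0 in 24 of 34 members and in 48.1% of all genes tested. The counts of calls were lower without some single libraries, among the members and over all genes. Without control replicate 1 the counts of higher genes were 3 cytosolic and 0 mitochondrial, without control replicate 2 they were 3 and 1, without control replicate 3 they were 4 and 2, and without RA replicate 1 they were 5 and 1. In the same order 9.18%, 8.27%, 8.49% and 9.71% of all genes tested were called higher. FARSA, HARS and VARS were called under each library left out in turn.

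**Figure D2:**
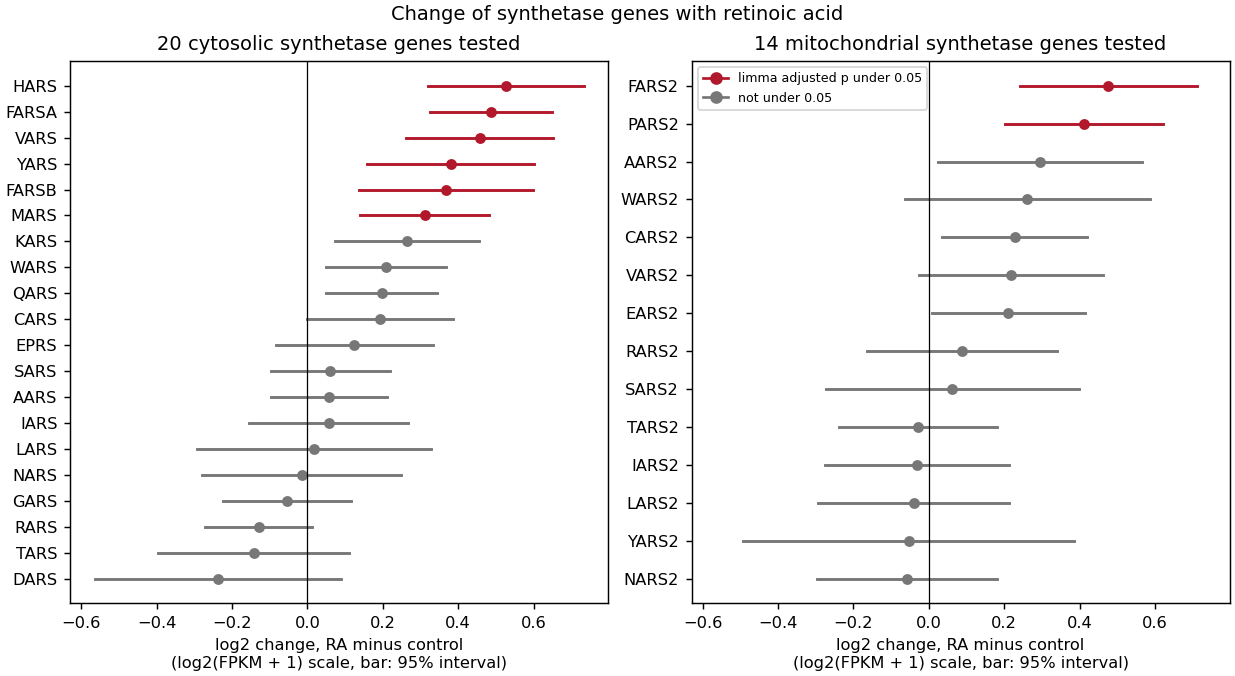
Log2 change of RA minus control on the log2(FPKM + 1) scale (points) with the 95% interval from limma (bars) for 20 cytosolic and 14 mitochondrial synthetase genes; red marks a limma adjusted p under 0.05. The red genes lie between 0.31 (MARS) and 0.53 (HARS), and no gene to the left of 0 is red.

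Each gene that charges tRNA with phenylalanine rose. FARSA, the catalytic chain of the cytosolic enzyme, was at 27.6, 26.4 and 26.7 FPKM in control and at 37.4, 41.2 and 35.9 FPKM in RA. The groups lay well apart, with the highest value in RA replicate 2. On the log2 scale the change was 0.49 ± 0.07 (SE; limma adjusted p = 0.00224). FARSB, its partner chain, was at 11.9, 11.6 and 13.2 FPKM in control and 14.2, 17.9 and 16.2 FPKM in RA. The nearest libraries of the groups, control replicate 3 and RA replicate 1, were 13.2 and 14.2 FPKM (log2 change 0.37 ± 0.10 SE, limma adjusted p = 0.0306). FARS2, the mitochondrial enzyme, was at 7.47, 8.09 and 8.63 FPKM in control and 11.3, 13.1 and 10.5 FPKM in RA. Its groups did not overlap either, and the change on the log2 scale was 0.48 ± 0.10 (SE; limma adjusted p = 0.0119). FARSA lies at chromosome 2, 66105393 to 66114867, FARSB on chromosome 15, 124472236 to 124555042, and FARS2 on chromosome 7, 3193433 to 3557413, as the deposited table places them. FARSA was called under all 20 alternatives. FARSB did not pass when RA replicate 3 was left out (limma adjusted p = 0.0630), nor when any 1 of the controls was (0.0948, 0.115 and 0.0508 in replicate order), nor with all libraries and no filter on low values (0.0620), and FARS2 did not pass with control replicate 1 left out (0.0501).

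HARS, the histidine enzyme of the cytosol (chromosome 2, 142387563 to 142401232), had the largest change. It was at 18.0, 16.2 and 17.3 FPKM in control and at 25.4, 27.7 and 22.5 FPKM in RA. The lowest RA library thus lay above the highest control library. The means were 17.1 ± 0.917 and 25.2 ± 2.59 FPKM. The change on the log2(FPKM + 1) scale was 0.53 (± 0.09 SE, limma adjusted p = 0.00457).

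VARS, the valine enzyme of the cytosol (chromosome 7, 23886132 to 23899265), was at 33.8, 32.6 and 30.5 FPKM in control and 41.9, 50.0 and 42.6 FPKM in RA. RA replicate 2 was the highest and no libraries of the groups overlapped (log2 change 0.46 ± 0.08 SE, limma adjusted p = 0.00650). VARS2, its mitochondrial partner, lies 470 kb away on the same chromosome. It was at 7.91 ± 0.286 FPKM in control and 9.41 ± 1.35 FPKM in RA, with a log2 change of 0.22 and a 95% interval from -0.03 to 0.46 (limma adjusted p = 0.161).

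YARS and MARS, the tyrosine and methionine enzymes of the cytosol, also rose. YARS was at 30.9, 26.0 and 31.6 FPKM in control and 38.4, 41.9 and 35.7 FPKM in RA (log2 change 0.38 ± 0.10 SE, limma adjusted p = 0.0232). Control replicate 2 was the lowest library, and the groups did not overlap. MARS was at 24.8, 26.5 and 25.6 FPKM in control and 30.2, 35.0 and 31.1 FPKM in RA (0.31 ± 0.07 SE, limma adjusted p = 0.0189), again without overlap. The MARS locus shares 69 bases with DDIT3 and 9775 bases with ARHGAP9 on the other strand, and the strand setting of the counting is not given in the sources used here. ARHGAP9 was at 1.63 FPKM in control and DDIT3 at 21.6 FPKM in control and 21.7 FPKM in RA. YARS did not pass with control replicate 2 (limma adjusted p = 0.0764), control replicate 1 (0.0511) or RA replicate 1 (0.0639) left out, nor with all libraries and no filter (0.0535), and MARS did not pass when any 1 of the controls was left out (0.0701, 0.0534 and 0.0669 in replicate order).

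PARS2, which charges mitochondrial tRNA with proline (chromosome 6, 157588985 to 157595175), was at 2.75, 2.61 and 3.02 FPKM in control and 4.13, 4.04 and 3.96 FPKM in RA. The RA libraries lay close together and all above control. On the log2(FPKM + 1) scale the change was 0.41 (± 0.09 SE, limma adjusted p = 0.0138). With edgeR on the recovered reads the log2 fold change was 0.53, against 0.55 for HARS. In limma, PARS2 did not pass with control replicate 1 (0.0501), control replicate 2 (0.0632) or RA replicate 1 (0.0536) left out.

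MARS2, the methionine enzyme of mitochondria, had a mean below 0.5 FPKM and was not in the test. Its deposited length is 15313 bases, nearly the whole locus of 15409 bases on chromosome 15 (101508668 to 101524076). FPKM divides by this length, and whether the transcript is that long was not tested. MARS2 was at 0.394, 0.413 and 0.391 FPKM in control and 0.630, 0.561 and 0.552 FPKM in RA, which rest on 372 to 845 reads. All RA libraries lay above all control libraries. On the recovered reads, in an alternative added after seeing the data, edgeR gave a log2 fold change of 0.58 (edgeR adjusted p = 0.0162). Limma with no filter gave 0.18 on the log2(FPKM + 1) scale (limma adjusted p = 0.0906), where low genes show less than their full change.

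Several cytosolic genes had all RA libraries above control and did not pass the threshold. KARS was at 235, 217 and 219 FPKM in control and 256, 300.2 and 252 FPKM in RA (log2 change 0.26, 95% interval 0.07 to 0.46, limma adjusted p = 0.0511). RA replicate 2 was far above the other RA libraries. The KARS adjusted p was 0.0476 without RA replicate 2, 0.0443 without RA replicate 3 and 0.0473 with edgeR, and over all alternatives it lay between 0.0409 and 0.159. QARS was at 81.5 to 87.7 FPKM in control and 93.5 to 103 FPKM in RA (log2 change 0.20, limma adjusted p = 0.0561). WARS, the tryptophan enzyme, which interferon gamma induces in human cells, was at 33.9, 33.1 and 35.3 FPKM in control and 37.5, 42.6 and 38.8 FPKM in RA (log2 change 0.21, limma adjusted p = 0.0589). CARS, the cysteine enzyme, was at 8.32 to 8.82 FPKM in control and 9.37 to 10.8 FPKM in RA (limma adjusted p = 0.126).

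Among mitochondrial genes the same held for CARS2, EARS2, AARS2 and VARS2. CARS2, for cysteine, was at 9.85 to 11.5 FPKM in control and 12.6 to 13.4 FPKM in RA (log2 change 0.23, limma adjusted p = 0.0805). EARS2, for glutamate, was at 6.24 to 7.15 FPKM in control and 7.73 to 8.45 FPKM in RA (log2 change 0.21, limma adjusted p = 0.111). Its locus shares 933 bases with UBFD1 on the other strand, which was at 16.0 FPKM in control and 18.2 FPKM in RA (limma adjusted p = 0.0718), so its counts are less certain. AARS2, for alanine, was at 2.19, 2.56 and 2.26 FPKM in control and 3.49, 2.57 and 3.26 FPKM in RA. Here RA replicate 2 barely exceeded control replicate 2, and the limma adjusted p was 0.0992 with all libraries and 0.0146 without RA replicate 2. With all libraries AARS2 passed under DESeq2 (DESeq2 adjusted p = 0.0459) and, in limma, after length correction (0.0427) and quantile normalization (0.0291).

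For the other synthetase genes the 95% intervals of the change included 0. AARS (82.4 ± 4.78 and 85.7 ± 3.78 FPKM), SARS, the serine enzyme (59.4 ± 3.70 and 62.0 ± 2.64), and GARS (71.9 ± 0.591 and 69.4 ± 6.21) differed by under 5% between the group means. The intervals of these log2 changes ran from -0.10 to 0.21 for AARS, -0.10 to 0.22 for SARS and -0.22 to 0.12 for GARS. RARS, the arginine enzyme, was at 29.9, 32.8 and 31.6 FPKM in control and 28.9, 28.6 and 28.5 FPKM in RA. It was the only tested member with all RA libraries below control, and did not pass (log2 change -0.13, limma adjusted p = 0.154). Among the mitochondrial genes, IARS2 (isoleucine), LARS2 (leucine), NARS2 (asparagine) and TARS2 (threonine) had log2 changes from -0.06 to -0.03, with limma adjusted p-values from 0.707 to 0.842. SARS2 (0.06), RARS2 (0.09) and WARS2 (0.26) did not pass either, with limma adjusted p-values from 0.200 to 0.773. The loci of IARS2, TARS2 and YARS2 share 5051 to 13481 bases with RAB3GAP2, ECM1 and DNM1L, so their counts are less certain; ECM1 lies on the same strand as TARS2 and rose (limma adjusted p = 0.0100), and RAB3GAP2 fell (0.00767).

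RA replicate 2 lay away from RA replicates 1 and 3, in both directions. It held the highest RA value in 20 of 34 tested members and the lowest in 10, against 46.5% and 38.3% of all genes tested. DARS, the aspartate enzyme, was at 16.6, 11.3 and 16.5 FPKM in RA and at 16.5 to 18.0 FPKM in control. LARS, the leucine enzyme, was at 18.2, 13.3 and 19.5 FPKM in RA and 16.0 to 17.5 FPKM in control. RA replicate 2 alone was below all control libraries in LARS, while the other RA libraries were above all of them. NARS (asparagine), IARS (isoleucine) and EPRS had the same order, with 16.6, 33.7 and 21.8 FPKM in RA replicate 2 against at least 19.8, 36.5 and 22.6 FPKM in each control library and at least 22.1, 41.5 and 26.3 FPKM in the other RA libraries. YARS2, for tyrosine, was at 1.89, 0.852 and 2.01 FPKM in RA and at 1.46 to 1.90 FPKM in control. TARS was also lowest in RA replicate 2, at 6.01 FPKM against 7.44 and 7.76 FPKM in the other RA libraries.

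Without RA replicate 2, EPRS was called higher (limma adjusted p = 0.0209) beside KARS and AARS2, and the counts were 8 cytosolic and 3 mitochondrial genes higher and 0 lower (limma), where 15.4% of all genes tested were called higher. Across the 34 tested members the log2 ratio of RA replicate 2 to the mean of the other RA libraries had a Spearman's rho of -0.40 with gene length, and across 14554 genes rho was -0.46. The summed level of 5 macrophage markers was also highest in RA replicate 2, at 54.2 FPKM against 37.4 and 43.7 FPKM, and its part in these values was not tested. Gene length also had a rho of -0.32 with the log2 change of RA against control itself, across the 34 members and likewise across all genes tested. The correlations describe genes measured in the same libraries, which are not independent points. The part of gene length in these calls was not tested beyond a length correction, after which 8 cytosolic and 3 mitochondrial genes were higher and 0 lower (limma), with 14.8% of all genes tested called higher.

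**Figure D3:**
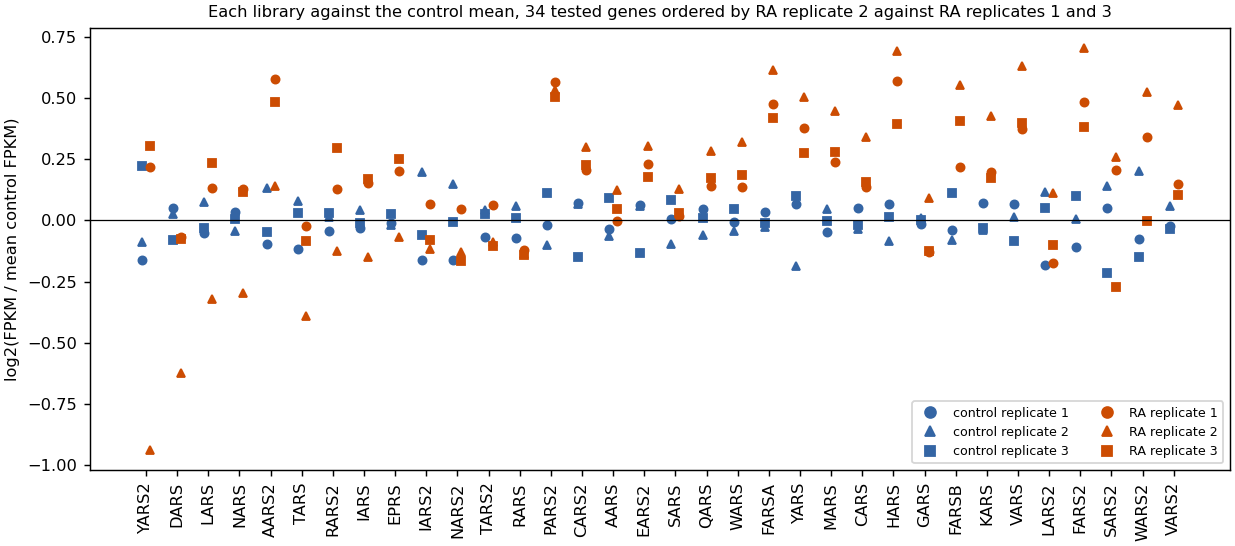
Log2 ratio of each library's FPKM to the mean control FPKM for 34 tested synthetase genes, ordered from left to right by RA replicate 2 relative to RA replicates 1 and 3; blue marks control, orange RA and triangles replicate 2. Orange triangles lie below the other orange points on the left (YARS2, DARS, LARS, NARS) and above them on the right (VARS2, WARS2, FARS2).

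Members of the multi-synthetase complex and the other cytosolic enzymes were set side by side without a test of their difference. Of 8 complex members 1 rose (MARS), with a median log2 change of 0.09, and of 12 other cytosolic genes 5 rose, with a median of 0.20, against 13.9% and -0.01 for all genes tested. Without RA replicate 2 the medians were 0.17 and 0.14, in the opposite order, and 3 and 5 genes rose. By catalytic class, 3 of 10 class I and 3 of 10 class II cytosolic genes rose. Of 8 tested mitochondrial class I genes 0 rose by limma, edgeR or DESeq2, and 2 (CARS2 and EARS2) had an unadjusted limma p under 0.05. Of 6 class II mitochondrial genes 2 rose.

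The ratio of the cytosolic to the mitochondrial level was set out for 16 combinations of member genes for the same amino acid. Mean control ratios ran from 0.784 ± 0.0645 for CARS over CARS2 to 64.2 ± 1.21 for MARS over MARS2. Both rest on unlike deposited lengths, 8116 bases for CARS, 1883 for CARS2, 3249 for MARS and 15313 for MARS2. CARS over CARS2 was the only ratio below 1, with 0.770, 0.728 and 0.855 in control and 0.746, 0.805 and 0.742 in RA. CARS had more reads than CARS2, 4240 to 6659 against 1151 to 2072 per library. This ratio was thus below 1 only after division by length. The groups overlapped in 13 of 16 ratios. For single genes, groups did not overlap in 48.0% of all genes tested, and no such share was computed for ratios of other genes. EPRS and FARS2 recur among the ratios, which are therefore not independent. VARS over VARS2 was higher in each RA library (4.78, 4.55 and 5.01) than in any control library (4.35, 3.96 and 3.95). EPRS over PARS2 was lower in each RA library (6.38, 5.40 and 6.88 against 8.26, 8.67 and 7.73), as was MARS over MARS2 (47.9, 62.3 and 56.3 against 63.0, 64.2 and 65.4). The ratios are a description and were not tested; an exact permutation test of 3 against 3 libraries cannot give a p under 0.1.

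**Figure D4:**
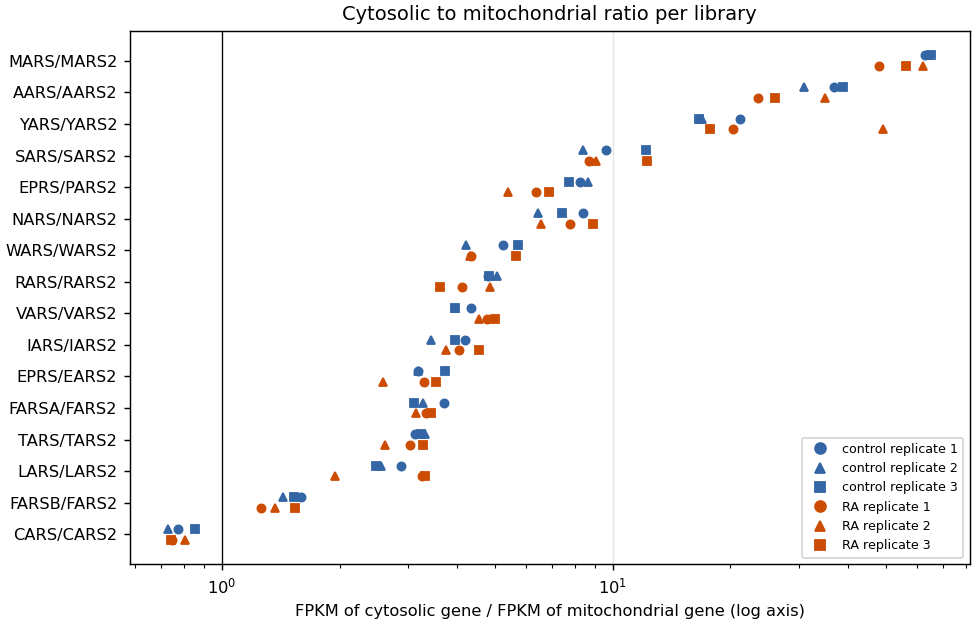
Ratio of the FPKM of a cytosolic synthetase gene to that of the mitochondrial gene for the same amino acid in each library, on a log axis, with a line at 1; blue marks control and orange RA. Only VARS/VARS2, EPRS/PARS2 and MARS/MARS2 have groups that do not overlap, and CARS/CARS2 lies left of the line.

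Genes that work beside the synthetases moved in both directions. Of 20 tested tRNA charging partners (of 22 listed) 5 rose and 1 fell (limma), 25% and 5% against 13.9% and 12.0% of all genes tested, with a median log2 change of 0.18. PUS1, which makes pseudouridine in tRNA, was at 6.05 ± 0.722 FPKM in control and 10.4 ± 0.240 FPKM in RA (log2 change 0.70, limma adjusted p = 0.00189). EEF1E1, a scaffold protein of the multi-synthetase complex, rose as well, with 6.63 ± 0.634 FPKM in control against 10.3 ± 0.557 FPKM in RA (0.57, limma adjusted p = 0.00385). The other scaffold proteins did not pass: AIMP2 was at 5.65 ± 0.552 and 7.40 ± 1.06 FPKM (limma adjusted p = 0.0730) and AIMP1 at 21.5 ± 2.06 and 21.1 ± 1.35 FPKM (limma adjusted p = 0.832). ELAC2, which trims the 3' end of tRNA precursors, rose (0.46, limma adjusted p = 0.00611), as did DTD1, a D-aminoacyl-tRNA deacylase (0.53, 0.00665), and AARSD1, an alanyl-tRNA editing protein (0.29, 0.0235). TARSL2, a second cytosolic threonyl-tRNA synthetase, fell from 5.59 ± 0.427 to 3.84 ± 0.369 FPKM (-0.45, limma adjusted p = 0.0155). AARSD1 and TARSL2 had limma adjusted p-values of up to 0.0835 and 0.0715 when a library was left out.

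ATF4, the transcription factor of the amino acid response, is reported to induce many cytosolic synthetase genes in mouse and human cells. Of 12 members so reported 2 rose (MARS and YARS), with a median log2 change of 0.06 (limma). Of the 8 other cytosolic members 4 rose (FARSA, FARSB, HARS and VARS), with a median of 0.32. The shares called higher were 16.7% and 50%, against 13.9% of all genes tested, so that of the reported targets was near the background. The difference between these groups was not tested, and their median gene lengths were 3733 and 2336 bases. After the length correction the medians were 0.11 and 0.25, and without RA replicate 2 they were 0.14 and 0.24. Of 39 tested genes of ATF4 and the amino acid response, 8 rose and 15 fell (limma), 20.5% and 38.5% of them against 13.9% and 12.0% of all genes tested, with a median of -0.20. The ATF4 transcript itself fell, with 308 ± 7.30 FPKM in control and 267 ± 10.8 in RA (log2 -0.21, limma adjusted p = 0.0399). That limma adjusted p was up to 0.128 when a library was left out. These libraries measure RNA, and ATF4 protein was not measured.

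Within that list the stress-induced DDIT4 rose from 34.1 ± 2.68 to 80.3 ± 1.80 FPKM (log2 change 1.22), and SLC3A2, the shared chain of several amino acid transporters, rose from 66.5 ± 0.929 to 111 ± 11.4 FPKM (0.73). SLC7A5, its partner in leucine uptake, fell from 33.6 ± 1.27 to 18.9 ± 1.63 FPKM (-0.80). The lipoprotein receptor gene VLDLR (-1.01), the transcription factor gene ATF3 (-0.92) and the alanine aminotransferase gene GPT2 (-1.06) fell as well. Limma adjusted p-values of these 6 genes, the smallest in the list, were at most 0.000630.

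WARS was also read beside interferon response genes. Of 19 such genes 11 rose and 0 fell (limma; edgeR and DESeq2 also called 0 lower, and limma put 0 lower at an unadjusted p under 0.05), 57.9% against 13.9% of all genes tested, with a median log2 change of 0.48. The 6 of smallest p were GBP1 (log2 change 0.99), PSMB10 (1.32), PSMB8 (0.86), IRF7 (0.74), TAP2 (0.49) and PSMB9 (0.74). Their limma adjusted p-values did not exceed 0.00340. The WARS log2 change of 0.21 lay below those of these 6 genes.

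**Figure D5:**
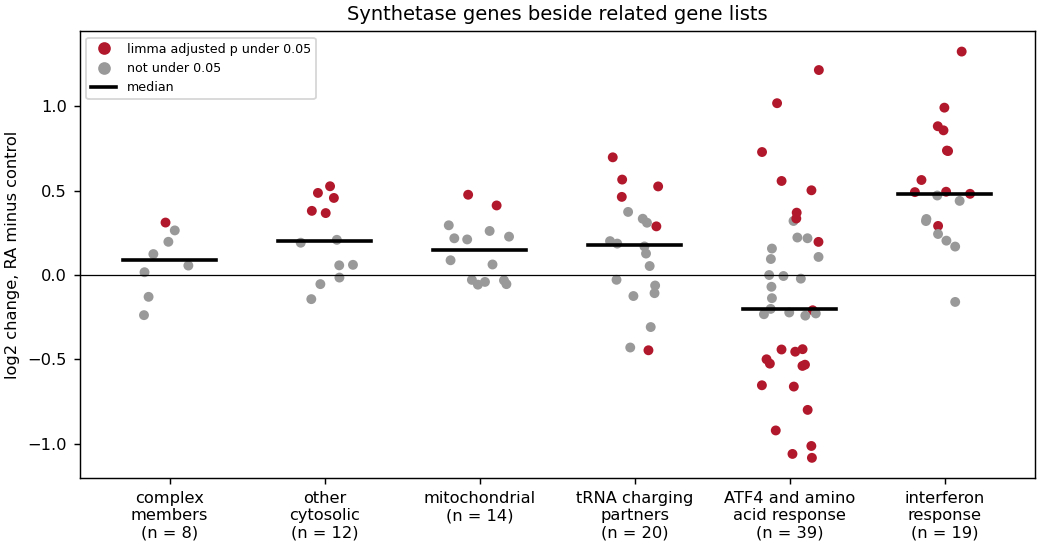
Log2 change of RA minus control on the log2(FPKM + 1) scale for the tested genes of each group (points, spread sideways for visibility), with the median as a black line and red for a limma adjusted p under 0.05. Medians are 0.09 for complex members, 0.20 for other cytosolic genes, 0.15 for mitochondrial genes, 0.18 for charging partners, -0.20 for the amino acid response list and 0.48 for the interferon list.

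The authors' deposited table of called genes lists 10 synthetase genes, each as higher in RA. These are FARSA, FARSB, HARS, MARS, VARS, YARS, AARS2, FARS2, MARS2 and PARS2, with log2 fold changes from 0.35 (MARS) to 0.58 (HARS) and false discovery rates from 3.25e-05 (FARSA) to 0.0389 (AARS2) in the authors' deposited table. The authors' deposited tables list 7.81% of all 29884 genes as higher and 6.83% as lower. Only 14567 of the 29884 genes reached a mean of 0.5 FPKM, against 34 of the 35 synthetase genes found. The listed share among genes of like level was not computed, so 7.81% and 6.83% are not a like background for the members. The 8 genes that limma called were among these 10, and AARS2 and MARS2 were the others.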

How the data were processed

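The 6 libraries were grouped by title into control and RA. The authors deposited FPKM values for 29884 genes with a length and coordinates, per the file headers, and whole-number counts with a log2 fold change, a p-value and a false discovery rate for 4377 genes they called, per the file headers. Aligner, counting tool, strand setting and build: not given in the sources used here. FPKM times length and a library total, set from the deposited counts, gave whole reads (within 0.05) for at least 99.8% of non-zero values; 42 genes that were not whole in every library were left out of count tests. Limma 3.58.1 (R 4.3.3) was run on log2(FPKM + 1) with a variance trend over the 14567 genes whose mean FPKM reached 0.5. It gives the log2 changes, SEs, 95% intervals and Benjamini-Hochberg adjusted p-values. The fit was also run on simulated reads, with the same dispersion for every gene and no length-dependent difference between libraries. That simulation therefore lacks the length dependence seen in RA replicate 2 and in the log2 changes, and no result here rests on it.

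Alternatives were other pseudocounts (0.1, 0.5), filters, scalings and variance models, a lowess length correction (span 0.3), blocking on the replicate number, leaving out each library, and edgeR 4.0.16 and DESeq2 1.42.0 on recovered reads. A further edgeR fit, on genes with a mean of at least 10 reads, was chosen after seeing the data. All synthetase genes found may be named, with the 6 genes of smallest p per related list, except that AIMP1 and AIMP2 among the charging partners were chosen after their values were seen, as were ARHGAP9, DDIT3, UBFD1, RAB3GAP2, ECM1 and DNM1L, which overlap members. The members and lists were chosen with earlier results of these data known. Of 22 charging partners 21 were found and 20 passed the filter, of 40 amino acid response genes 40 and 39, and of 5 germ cell markers 4 and 4.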

Additional observations from a re-analysis of the deposited data

How the results depend on the processing

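Under all 20 alternatives 0 of the listed synthetase genes tested were called lower, and the medians of both groups stayed above 0. Leaving out a library gave 3 to 8 cytosolic and 0 to 3 mitochondrial genes called higher, with medians of 0.14 to 0.16 and 0.15 to 0.22. The cytosolic median was 0.11 after quantile normalization and 0.20 with edgeR on genes with a mean of at least 10 reads. The mitochondrial median was 0.18 with DESeq2, with edgeR under DESeq2 size factors (0.18) and with no filter (0.18), 0.17 with edgeR under TMM, 0.19 after quantile normalization and 0.27 with edgeR on genes with a mean of at least 10 reads, which adds MARS2. With the replicate number as a block 4 cytosolic and 2 mitochondrial genes were higher. In that fit 11.1% of all genes tested were called higher, against 13.9% without the block. FARSB (limma adjusted p = 0.0523) and YARS (0.0610) did not pass with the block, nor with no filter (0.0620 and 0.0535). Same-numbered libraries deviated together at r = -0.21, -0.09 and 0.34, and 1 of 3 control libraries correlated best with its own number. The numbers were therefore not read as pairs. Over all genes, leaving out a library gave 1201 to 2248 higher and 992 to 2258 lower calls against 2019 and 1750 with all libraries. Of 680 values of single genes, 18 lost and 12 gained a call. Signs turned only in genes that were not called in either fit: after quantile normalization in AARS (-0.0177), LARS2 (0.00383), NARS2 (0.0194), TARS2 (0.0461) and YARS2 (0.00606); after length correction in NARS (0.0726), SARS (-0.0162), IARS2 (0.143), LARS2 (0.00855) and SARS2 (-0.0128); and in NARS with the added edgeR fit (0.0274). With a library left out, log2 changes ran from -0.0868 to 0.175 in LARS, -0.0844 to 0.118 in NARS, -0.102 to 0.0619 in IARS2, -0.117 to 0.0116 in LARS2, -0.114 to 0.000619 in NARS2, -0.0248 to 0.207 in SARS2 and -0.18 to 0.17 in YARS2. The cause of these shifts was not tested.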
